A study of Mus musculus with 24 samples.

Results

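The interferon response genes described here are 38 genes of mouse liver that interferons are known to induce, among 19041 genes tested on the same arrays. A gene was taken by its symbol in the array's own annotation or, through its transcript accession, by its current symbol: 36 members were found by accession and 2 by the gene name of the array. Each is represented by the brightest of its probes. All 38 passed the filter, which asked for a signal well above background on at least 4 of the 24 arrays. They fall into a type I arm of 10 genes (Ifit1, Ifit2, Ifit3, Oas1a, Oas2, Oas3, Oasl1, Oasl2, Mx1 and Mx2) and an interferon-gamma arm of 7 genes (Gbp2, Gbp3, Igtp, Irgm1, Iigp1, Ifi47 and Cxcl9). The others are 7 transcription factors and sensors (Irf1, Irf7, Irf9, Stat2, Ifih1, Ddx58 and Zbp1), 8 further antiviral genes (Isg15, Usp18, Rsad2, Xaf1, Rtp4, Bst2, Ifi44 and Ifi44l), and 6 genes of antigen processing and signalling (Tap1, Tap2, Psmb8, Psmb9, Ubd and Cxcl10).

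The study measured total RNA from mouse livers that lack the forkhead factors Foxa1 and Foxa2 (double knockout, dKO) and from wild-type livers, in both sexes and under chemical carcinogenesis. Treatment began at an age of 14 to 15 days with DEN (diethylnitrosamine, which damages hepatocyte DNA) at 20 mg/kg and went on with the tumour promoter TCPOBOP, an agonist of the nuclear receptor CAR, in 8 fortnightly injections of 3 mg/kg. The 24 one-colour Agilent arrays form 6 groups of 4: untreated wild-type females, untreated dKO females, and treated wild-type females, dKO females, wild-type males and dKO males. No untreated male was among the arrays used here, so every comparison of the sexes is between treated mice. All arrays, those of untreated mice included, carry the tissue label liver tumor, and the extraction protocol speaks of liver samples and of sorted cells without saying which array holds which. No source used here gives the Cre line, the deleted exons, the strain or the age at collection. Nothing says that the 4 arrays of a group come from separate mice, so p-values measure only the spread between these arrays, which may be technical.

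Interferons are cytokines released when cells sense viral nucleic acid or when lymphocytes are activated. Type I interferons act through a complex with STAT2 and IRF9 that binds the interferon-stimulated response element (ISRE), and interferon gamma acts mainly through the gamma-activated site (GAS). The Ifit, Oas and Mx families are typical of the first response and the guanylate-binding proteins, immunity-related GTPases and Cxcl9 of the second, although many genes answer to both. In liver, hepatocytes, resident macrophages, endothelial cells and infiltrating leukocytes can all respond.

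The promoters of the members show how far these 2 elements are shared. RefSeq promoters (GRCm38.p6, 250 bases before each start) were at hand for 30 of the 38 members, 34 promoters in all. ISRE-type letters, GAAA followed by a further GAAA with any 2 bases between the copies, on either strand, were in 13 of these 34 promoters (38.2%), against 978 of all 32851 promoters (2.98%). By role they were in 4 of 8 type I arm promoters, 4 of 7 interferon-gamma arm promoters, 1 of 8 promoters of factors and sensors, 3 of 6 of further antiviral genes and 1 of 5 of the last class. GAS-type letters, TTCNNNGAA on either strand, were in 6 of 34 (17.6%) against 7.02% of all promoters, and in 1 member promoter matches of both kinds overlapped. By role, GAS-type letters were in 2 of 8 type I arm promoters and 1 of 7 interferon-gamma arm promoters. They were also in 1 of 8 promoters of factors and sensors, 1 of 6 of further antiviral genes and 1 of 5 of the last class. The ISRE-type windows of 8 members are printed to show that genes of both arms carry the same letters. Several members described in full below, such as Ubd, Irf7, Ifi47 and Ifi44l, hold no ISRE-type match in the window. Each line runs 5′ to 3′ on the strand of the gene, with 15 flanking bases on each side unless the window ends sooner, and capitals mark the matched letters, which overlap one another where the run is longer than 10 bases.
Isg15: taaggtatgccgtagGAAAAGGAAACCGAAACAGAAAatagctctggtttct
Ifit1: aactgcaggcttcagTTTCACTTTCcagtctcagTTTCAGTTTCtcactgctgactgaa
Oas3: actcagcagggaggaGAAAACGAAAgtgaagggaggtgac
Oas1a: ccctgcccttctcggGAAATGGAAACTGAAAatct
Gbp2: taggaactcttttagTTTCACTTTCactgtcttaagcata
Gbp3: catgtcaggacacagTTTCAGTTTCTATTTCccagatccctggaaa
Irgm1: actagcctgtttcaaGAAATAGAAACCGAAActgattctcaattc
Bst2: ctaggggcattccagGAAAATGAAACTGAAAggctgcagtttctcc
The windows lie at chr4:156200860-156200911, minus strand (Isg15), chr19:34640770-34640828, plus strand (Ifit1), chr5:120777710-120777749, minus strand (Oas3) and chr5:120907526-120907560, minus strand (Oas1a). Those of the other 4 lie at chr3:142620589-142620628, plus strand (Gbp2), chr3:142559984-142560029, plus strand (Gbp3), chr11:48871421-48871465, minus strand (Irgm1) and chr8:71537572-71537617, minus strand (Bst2). The Isg15 run holds 3 overlapping matches, from base 78 to base 57 before the start, and that of Oas1a holds 2, from base 20 to base 5. A match describes letters only, and no binding was measured.

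Levels below are log2 signals relative to the 75th percentile of the same array, so a level of 0 is a signal equal to that percentile, and a difference of 1 is a doubling. Levels of different probes are not compared with each other. The knocked-out gene matched the labels in every group: the Foxa2 level was 4.45 ± 0.40 (SD, n = 4), 4.01 ± 0.10 and 3.69 ± 0.10 in untreated female, treated female and treated male wild type, and -3.99 ± 2.22, -6.06 ± 0.95 and -4.30 ± 1.35 in the matching dKO groups. All 8 hepatocyte markers passed the filter. Between 50.4% and 68.4% of probes were well above background on an array, with a mean of 67.2% in treated dKO females and of 59.4% to 62.1% in the other groups. In every group the replicate labelled 4 stood between the other 3 arrays for most genes: among genes with a mean level above -2 it did so for 72.9% to 86.4%, while replicates 1 to 3 did so for 21.4% to 63.8%. The SD of its difference from the mean of the other 3 was 0.13 to 0.18, against 0.24 to 0.81 for the others. Whether replicate 4 is independent of the other 3 was not tested, and counts of called members and pathway genes are also given with 3 arrays per group, those of cell markers and MHC classes with all 4 only. Apart from that, treated wild-type female replicate 3 was the highest of its group for 37 of the 38 members (and for 28.4% of all genes), and treated wild-type male replicate 2 for 25 (23.5% of all genes). Counts of members are therefore also given without replicate 4 and without these 2 high arrays, both alternatives having been chosen after the data were seen. The percentages of all genes printed beside counts belong to the main fit. They do not hold for counts under other fits, for which the share of all genes is mostly not given. Such counts show how far the calls move with the fit. They cannot be set against the background of all genes.

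The 2 arms were both higher in every other group than in untreated wild-type females, but in different order. Each gene was taken as its difference from its untreated wild-type female mean, and the differences were averaged over an arm on each array. The type I arm averaged 0.59 ± 0.11 (SD, n = 4) in untreated dKO females, 1.81 ± 1.03 in treated wild-type females, 2.19 ± 0.23 in treated dKO females, 1.88 ± 0.61 in treated wild-type males and 1.45 ± 0.13 in treated dKO males. The interferon-gamma arm averaged 0.86 ± 0.06, 1.35 ± 0.68, 1.1 ± 0.14, 1.05 ± 0.50 and 0.61 ± 0.09 in the same groups. The type I arm minus the interferon-gamma arm was thus -0.27 ± 0.09 in untreated dKO females and lay below 0 on all 4 arrays there, while it was 0.46 ± 0.36, 1.09 ± 0.29, 0.83 ± 0.25 and 0.85 ± 0.05 in the treated groups and above 0 on all 16 arrays. Arm medians had the other order in untreated dKO females, 0.71 for the type I arm and 0.47 for the interferon-gamma arm. The largest differences of the latter arm there were those of Gbp2 (2.55) and Gbp3 (1.56). These are descriptions of a chosen list, with no test.

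**Figure D1:**
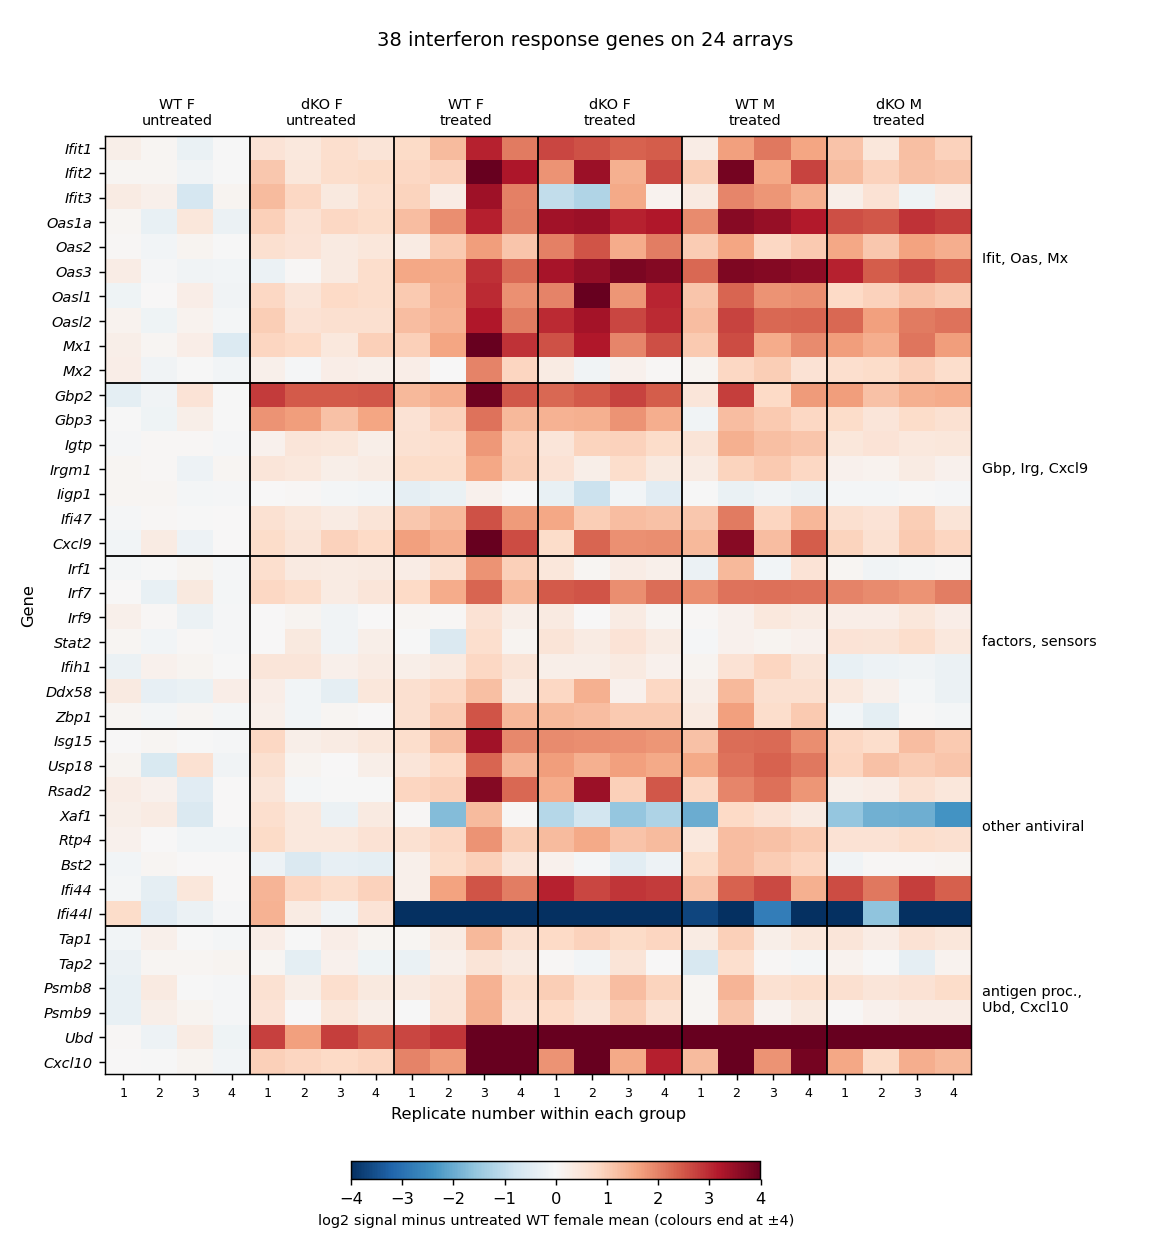
Log2 difference of each of the 38 members (rows, by role) from its mean in untreated wild-type females on each of the 24 arrays (columns, by group), with colours ending at -4 and 4. Treated wild-type female replicate 3 is the highest array of its group for 37 members, and the Ifi44l row lies far below 0 in all treated groups.

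The spread inside the treated wild-type groups was wide and common to both arms. In treated wild-type females the type I arm was at 0.90, 1.13, 3.18 and 2.04 and the interferon-gamma arm at 0.80, 0.89, 2.29 and 1.44 on replicates 1 to 4. Treated wild-type males had the type I arm at 1.03, 2.48, 2.0 and 2.02 and the interferon-gamma arm at 0.51, 1.68, 0.87 and 1.15. The treated dKO arrays lay closer together, from 2.0 to 2.48 for the type I arm in females and from 1.27 to 1.56 in males. Marker genes of leukocytes moved too. The summed linear signal of 14 T and NK cell markers, in units of the array's 75th percentile, was 1.26 to 1.52 in untreated wild-type females and 2.44, 1.95, 5.90 and 2.97 in treated ones, so that replicate 3 was again the highest. For treated wild-type males it was 1.55, 3.49, 1.15 and 1.81, highest on replicate 2. Their part in the results was not tested, and in whole tissue a change in the number of cells and a change in RNA per cell cannot be told apart.

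**Figure D2:**
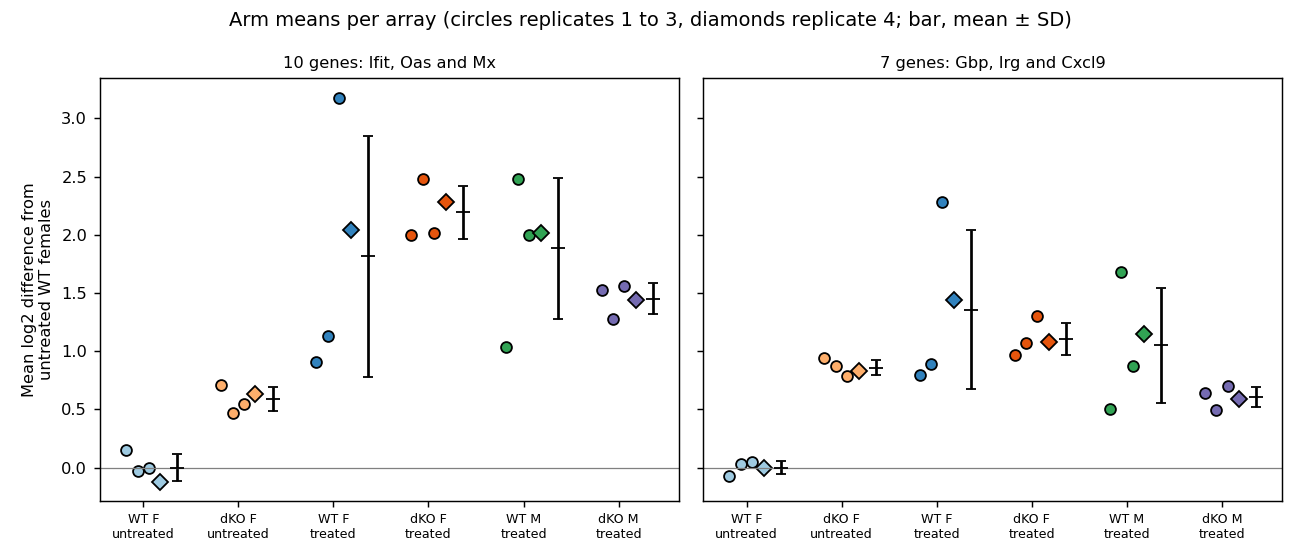
Mean log2 difference from untreated wild-type females over the 10 genes of the type I arm and the 7 genes of the interferon-gamma arm, per array. Circles are replicates 1 to 3, diamonds replicate 4, and bars the mean with SD of 4 arrays. In untreated dKO females the interferon-gamma arm mean (0.86) stands above that of the type I arm (0.59). The medians there (0.47 and 0.71) have the other order. In all treated groups the type I arm mean is the higher.

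Within the type I arm the oligoadenylate synthetases, which make the messenger that activates RNase L, differed most clearly between groups. Oas3 (probe at chr5:121206967-121207026) read -5.57, -5.91, -6.01 and -5.98 on the untreated wild-type arrays and -6.10, -5.81, -5.52 and -5.16 on the untreated dKO arrays. In treated females Oas3 was at -4.33, -4.37, -2.94 and -3.61 in wild type and at -2.57, -2.34, -2.09 and -2.19 in dKO. Treated males had Oas3 at -3.57, -2.13, -2.19 and -2.28 in wild type and at -2.78, -3.46, -3.22 and -3.46 in dKO. Oas3 was not well above background on any untreated wild-type array and on 1 of 4 untreated dKO arrays, but on all 16 treated arrays. In treated females every dKO array was above every wild-type array, while the male groups overlapped. Oas1a (probe at chr5:121348348-121348407) read -0.94, -1.31, -0.57 and -1.25 on the untreated wild-type arrays and -0.06, -0.43, -0.18 and -0.30 on the untreated dKO arrays. In treated females Oas1a was at 0.21, 0.84, 2.10 and 1.04 in wild type and at 2.35, 2.41, 2.05 and 2.18 in dKO. Treated males had Oas1a at 0.87, 2.61, 2.45 and 2.16 in wild type and at 1.56, 1.47, 1.88 and 1.73 in dKO. Both untreated groups lay below all treated arrays, and the treated female genotypes overlapped through wild-type replicate 3. Oas1a has near-identical neighbours in the Oas1 cluster, so its signal may hold some of theirs.

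Oas2 (probe at chr5:121180434-121180493) read -1.66, -1.81, -1.60 and -1.73 on the untreated wild-type arrays and -1.05, -1.16, -1.33 and -1.24 on the untreated dKO arrays. In treated females Oas2 was at -1.37, -0.66, -0.04 and -0.60 in wild type and at 0.31, 0.81, -0.22 and 0.36 in dKO. Treated males had Oas2 at -0.68, -0.13, -0.86 and -0.66 in wild type and at -0.14, -0.61, -0.09 and -0.25 in dKO. For Oas2 the untreated genotypes did not overlap, and in treated females 3 of the 4 dKO arrays exceeded every wild-type array. Oasl2 (probe at chr5:115362168-115362227) read -0.58, -0.88, -0.59 and -0.80 on the untreated wild-type arrays and 0.26, -0.12, -0.06 and -0.07 on the untreated dKO arrays. In treated females Oasl2 was at 0.53, 0.68, 2.49 and 1.36 in wild type and at 2.28, 2.60, 1.96 and 2.27 in dKO. Treated males had Oasl2 at 0.53, 2.0, 1.57 and 1.62 in wild type and at 1.59, 0.92, 1.37 and 1.45 in dKO. Oasl2, an Oas-like protein, was above both untreated groups on all treated arrays. Ifit1 (probe at chr19:34723796-34723855) read -0.39, -0.55, -0.90 and -0.64 on the untreated wild-type arrays and -0.06, -0.21, 0.04 and -0.09 on the untreated dKO arrays. In treated females Ifit1 was at 0.15, 0.65, 2.45 and 1.46 in wild type and at 2.05, 1.94, 1.73 and 1.81 in dKO. Treated males had Ifit1 at -0.33, 1.02, 1.5 and 0.96 in wild type and at 0.51, -0.16, 0.58 and 0.29 in dKO. Ifit1 binds viral RNA that lacks the host cap and blocks its translation. Its treated dKO males lay below all treated dKO females, with no overlap. Of the other members of the arm, Ifit2 had group means from -3.50 to -1.04, Ifit3 from 1.48 to 3.25, Oasl1 from -0.58 to 2.15, Mx1 from -5.25 to -2.69 and Mx2 from -0.01 to 0.77. Mx1, a dynamin-like GTPase, was well above background on 2 of 4 untreated wild-type arrays, and the Ifit3 probe may also read its near-identical copy Ifit3b.

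In the interferon-gamma arm, Ifi47 and Irgm1 encode immunity-related GTPases that act on vacuoles of intracellular pathogens. Ifi47 (probe at chr11:48910173-48910232) read 0.48, 0.57, 0.51 and 0.53 on the untreated wild-type arrays and 1.12, 0.97, 0.85 and 1.02 on the untreated dKO arrays. In treated females Ifi47 was at 1.60, 1.82, 3.07 and 2.24 in wild type and at 2.07, 1.51, 1.76 and 1.69 in dKO. Treated males had Ifi47 at 1.61, 2.61, 1.38 and 1.84 in wild type and at 1.18, 1.08, 1.51 and 1.05 in dKO. All treated female arrays of Ifi47 stood above all untreated arrays of the same genotype, and the untreated genotypes did not overlap either. Irgm1 (probe at chr11:48679069-48679128) read 2.82, 2.78, 2.54 and 2.83 on the untreated wild-type arrays and 3.22, 3.17, 2.96 and 3.08 on the untreated dKO arrays. In treated females Irgm1 was at 3.48, 3.46, 4.28 and 3.71 in wild type and at 3.32, 2.99, 3.44 and 3.12 in dKO. Treated males had Irgm1 at 3.06, 3.64, 3.78 and 3.56 in wild type and at 2.91, 2.88, 3.06 and 2.91 in dKO. In both treated sexes the dKO arrays of Irgm1 lay below all wild-type arrays. Gbp2 and Gbp3, guanylate-binding proteins that coat and lyse pathogen vacuoles, followed another pattern. Gbp2 was between -0.97 and -0.01 in untreated wild-type females and between 1.88 and 2.21 in untreated dKO females. It was between 0.72 and 3.31 in treated wild-type and between 1.74 and 2.13 in treated dKO females, so the untreated dKO arrays lay within the range of the treated wild-type arrays. Gbp3 had means of 1.52 ± 0.17 (SD, n = 4), 3.08 ± 0.27, 2.76 ± 0.68 and 3.04 ± 0.19 in these 4 groups. The chemokine Cxcl9, which draws CXCR3-bearing T cells, had means from -0.05 ± 0.23 in untreated wild type to 2.37 ± 1.15 in treated wild-type females. Igtp and Iigp1 were bright throughout, with group means of 4.51 to 5.57 and of 5.92 to 6.35. The Gbp genes and Iigp1 have close relatives, and cross-hybridization between them was not tested.

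Among factors and sensors, IRF7 is the transcription factor that amplifies type I interferon production. Irf7 (probe at chr7:148450664-148451014) read 0.11, -0.22, 0.47 and 0.00 on the untreated wild-type arrays and 0.90, 0.78, 0.41 and 0.56 on the untreated dKO arrays. In treated females Irf7 was at 0.88, 1.56, 2.43 and 1.42 in wild type and at 2.54, 2.62, 1.94 and 2.33 in dKO. Treated males had Irf7 at 1.96, 2.25, 2.30 and 2.26 in wild type and at 2.09, 1.98, 1.88 and 2.14 in dKO. Treated arrays exceeded untreated arrays of the same genotype for Irf7, and treated wild-type females lay lowest among the treated groups apart from replicate 3. Ifih1 (probe at chr2:62435621-62435680) read 1.70, 2.12, 2.05 and 1.92 on the untreated wild-type arrays and 2.43, 2.43, 2.16 and 2.28 on the untreated dKO arrays. In treated females Ifih1 was at 2.19, 2.32, 2.76 and 2.47 in wild type and at 2.18, 2.17, 2.31 and 2.13 in dKO. Treated males had Ifih1 at 2.06, 2.51, 2.79 and 2.46 in wild type and at 1.64, 1.73, 1.80 and 1.72 in dKO. Ifih1 encodes MDA5, a cytosolic sensor of long double-stranded RNA. All treated dKO male arrays lay below every other treated array. Irf1, Irf9, Stat2, Ddx58 (the RNA sensor RIG-I) and Zbp1 (a sensor of Z-form nucleic acid) had group means of 4.01 to 4.96, 1.30 to 1.61, 2.14 to 2.69, 0.42 to 1.23 and 1.65 to 3.16.

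Among the further antiviral genes, Bst2 encodes tetherin, which holds budding virions at the cell surface. Bst2 (probe at chr8:74058603-74058662) read 5.53, 5.72, 5.64 and 5.65 on the untreated wild-type arrays and 5.42, 5.07, 5.32 and 5.29 on the untreated dKO arrays. In treated females Bst2 was at 5.83, 6.37, 6.57 and 6.11 in wild type and at 5.79, 5.57, 5.23 and 5.43 in dKO. Treated males had Bst2 at 6.40, 6.86, 6.66 and 6.49 in wild type and at 5.51, 5.70, 5.69 and 5.71 in dKO. The dKO arrays lay below all wild-type arrays of the same sex and treatment in all 3 settings. Ifi44l (probe at chr3:151421955-151422011) read -1.89, -3.10, -2.86 and -2.67 on the untreated wild-type arrays and -1.24, -2.31, -2.76 and -2.09 on the untreated dKO arrays. In treated females Ifi44l was at -7.50, -7.53, -7.47 and -6.96 in wild type and at -8.05, -8.45, -8.24 and -8.29 in dKO. Treated males had Ifi44l at -6.30, -7.45, -5.39 and -7.76 in wild type and at -7.70, -4.24, -7.68 and -7.51 in dKO. Ifi44l, named H28 in the array's annotation, was well above background on all 8 untreated arrays, on no treated female array and on 1 of 4 arrays in each treated male group. Treated group means of Xaf1 (-2.70 to -0.80, against -0.74 in untreated wild-type females) and Iigp1 (5.92 to 6.29, against 6.35) lay below the untreated wild-type mean too. Its neighbour and relative Ifi44 had means of -1.75 and -0.79 in untreated wild-type and dKO females and of -0.16 and 1.11 in treated ones. Isg15, the ubiquitin-like modifier, Usp18, the protease that removes it, and Rsad2 (viperin) had group means of 0.69 to 2.59, 0.72 to 2.76 and -1.01 to 1.09. Rtp4 had means of 3.25 to 4.54 and Xaf1 of -2.70 to -0.43.

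Of the genes of antigen processing and signalling, Ubd (FAT10, a ubiquitin-like modifier) had the widest range. Ubd (probe at chr17:37332688-37332747) read -3.11, -3.35, -2.81 and -3.33 on the untreated wild-type arrays and -0.41, -1.52, -0.37 and -0.69 on the untreated dKO arrays. In treated females Ubd was at -0.47, -0.29, 4.97 and 3.05 in wild type and at 4.80, 6.10, 3.60 and 5.38 in dKO. Treated males had Ubd at 1.5, 6.08, 1.93 and 4.80 in wild type and at 3.41, 3.16, 3.92 and 3.63 in dKO. Treated wild-type groups of Ubd were split, with replicates 1 and 2 of the females at -0.47 and -0.29 and replicates 3 and 4 far above, while all treated dKO arrays were above 3. Cxcl10, the second CXCR3 ligand, had means of -0.37 ± 0.09 (SD, n = 4) and 0.50 ± 0.07 in untreated wild-type and dKO females, 3.08 ± 1.96 and 2.27 ± 1.20 in treated females and 2.59 ± 1.71 and 0.90 ± 0.35 in treated males. The peptide transporter subunits Tap1 and Tap2 had group means of -0.22 to 0.62 and 1.72 to 2.0, and the immunoproteasome subunits Psmb8 and Psmb9 of 3.16 to 4.10 and 3.32 to 4.05.

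**Figure D3:**
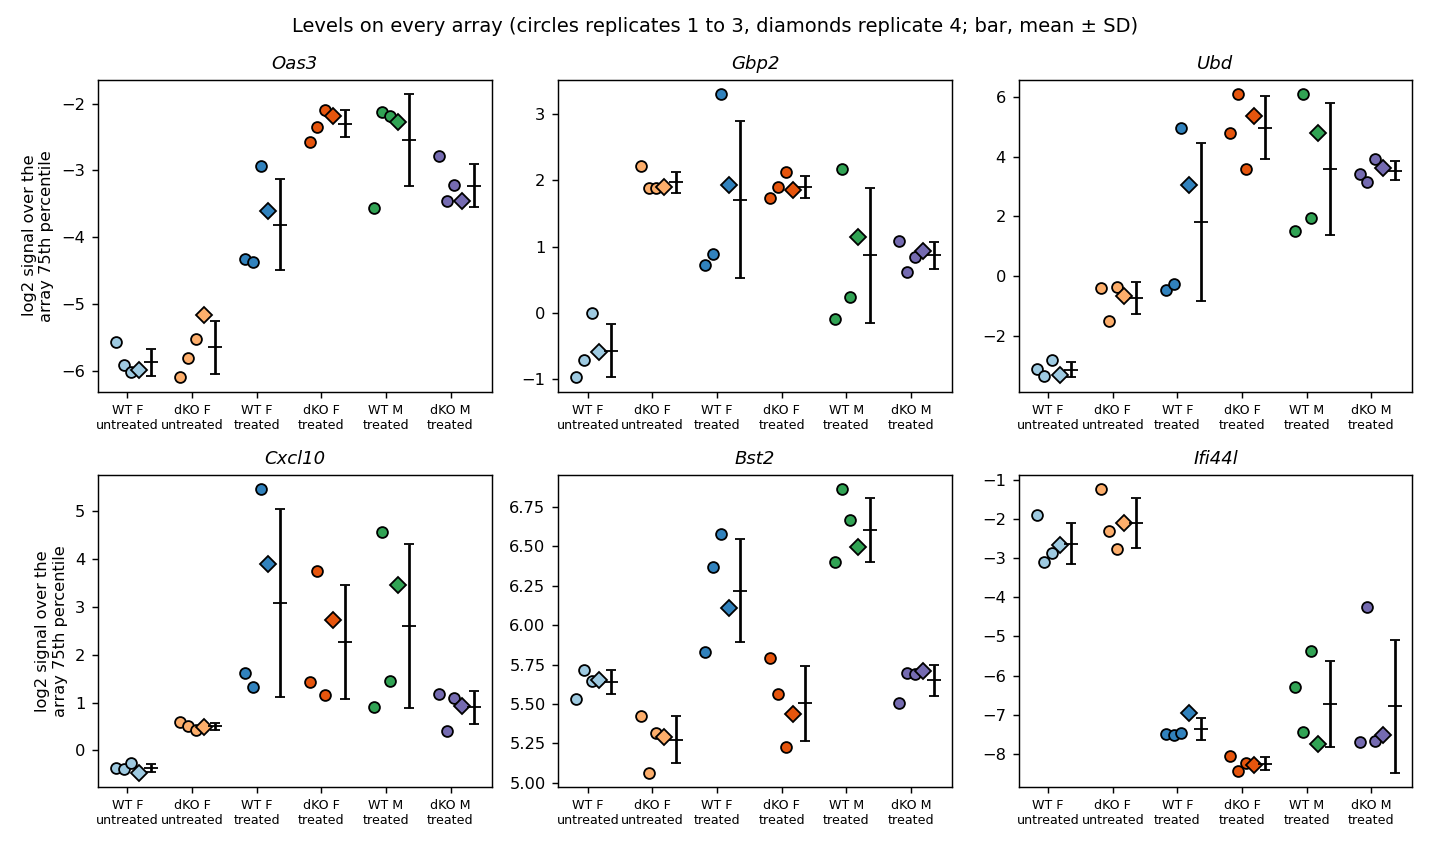
Log2 level on each array (relative to the array's 75th percentile) of Oas3, Gbp2, Ubd, Cxcl10, Bst2 and Ifi44l in the 6 groups. Untreated wild-type points of Oas3 and all treated female points of Ifi44l are not well above background; Gbp2 stands at 1.97 in untreated dKO females against -0.57 in untreated wild type.

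Treatment in wild-type females raised most of the genes. Differences were tested with limma over all 19041 genes, with Benjamini-Hochberg adjustment and a threshold of 0.05, and the comparisons share groups, so the same arrays enter several of them. Of the 38 members 28 (73.7%) rose and 1 (2.63%) fell with treatment, where 8.49% and 8.70% of all genes did; the median difference was 1.25 over the members and -0.06 over all genes. In the type I arm 8 of 10 rose (median 1.91), in the interferon-gamma arm 6 of 7 (median 1.24), among factors and sensors 4 of 7, among further antiviral genes 6 of 8, and of the last class 4 of 6. Placing dim genes at their bounds left these medians as they are. Ubd rose by 4.97 ± 1.01 (log2, SE; limma adjusted p = 0.00252), Cxcl10 by 3.44 ± 0.79 (adjusted p = 0.00622), Mx1 by 2.51 ± 0.52 (adjusted p = 0.00295) and Ifit2 by 2.46 ± 0.69 (adjusted p = 0.019). Cxcl9 and Gbp2 rose by 2.43 ± 0.49 and 2.28 ± 0.46, Oas1a by 2.06 ± 0.33 and Oasl2 by 1.98 ± 0.33. Oas3 was at least 4.03-fold higher in treated females (adjusted p = 0.000229), a bound because it was not above background without treatment. For such bounds the dim group is set to the lowest signal well above background, or its own signal if higher. Isg15 rose by 1.80, Ifi47 by 1.66, Irf7 by 1.48, Zbp1 by 1.38. Rises of below 1 were those of Irgm1 and Igtp (0.99 each), Irf1 (0.91), Psmb8 (0.73), Tap1 and Bst2 (0.58 each) and Ifih1 (0.49). The other calls, on Ifit1, Oas2, Oasl1, Gbp3, Usp18, Rsad2, Rtp4 and Ifi44, ran from 1.03 to 1.94. Ifi44l was at least 12.7-fold lower (adjusted p = 4e-05). Ifit3 (1.64), Mx2 (0.77), Ddx58 (0.75), Psmb9 (0.62), Irf9 (0.23), Tap2 (0.20), Stat2 (0.04), Xaf1 (-0.10) and Iigp1 (-0.11) did not pass.

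Leukocyte markers rose with the same treatment: 6 of 13 macrophage markers (Csf1r by 1.32), 4 of 5 monocyte markers (Cx3cr1 by 2.42), 6 of 14 T and NK cell markers (Cd8a by 2.47) and 5 of 6 B cell markers; Ncr1 and Eomes, which mark NK cells, were well above background on 2 of 24 arrays each. The summed macrophage signal was 40.3 to 85.3 without and 128 to 173 with treatment. No hepatocyte marker passed. The part of these cells in the result was not tested. With 3 arrays per group 6 members rose (Ifi47, Irf7, Irgm1, Oas1a, Oas3 and Oasl2) and 1 fell (Ifi44l), at a median of 1.19; without the 2 high arrays as well 2 rose (Gbp2 and Ifi47) and 1 fell, at a median of 0.75. Without treated wild-type female replicate 3 alone 22 rose and 1 fell, and within the 3 slides that hold both groups the median was 0.55 to 1.37.

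In treated dKO females 7 of 10 genes of the type I arm were higher than in untreated ones, and most of the interferon-gamma arm had no call. Of 38 members 18 (47.4%) rose and 3 (7.89%) fell, against 16.3% and 21.5% of all genes, with a median of 0.74 over the members and -0.07 over all genes. The type I arm had a median of 1.89, without a call for Ifit2 (1.57 ± 0.69), Ifit3 (-0.91 ± 0.58) and Mx2 (-0.05 ± 0.28), and in the interferon-gamma arm 1 rose and 1 fell of 7, with a median of 0.11. On the second Ifit2 probe the rise was 3.11 ± 0.81 (limma adjusted p = 0.00548). Ubd rose by 5.72 ± 1.01 (limma adjusted p = 0.000339), Oas3 by 3.35 ± 0.31 (adjusted p = 9.17e-07, with 1 of 4 untreated arrays well above background), Oas1a by 2.49 ± 0.33 (adjusted p = 3.3e-05) and Oasl2 by 2.28 ± 0.33 (adjusted p = 6.71e-05). Oasl1 rose by 2.02, Rsad2 by 2.0, Ifit1 by 1.96, Ifi44 by 1.89, Mx1 by 1.81, Irf7 by 1.70 and Oas2 by 1.51. Isg15 (1.38), Usp18 (1.30), Zbp1 (1.1), Ifi47 (0.77), Ddx58 (0.75), Rtp4 (0.74) and Tap1 (0.69) rose as well. Iigp1 fell by 0.40 ± 0.13 (adjusted p = 0.0213) and Xaf1, a pro-apoptotic factor, fell by 1.47 ± 0.53 (adjusted p = 0.0351). Ifi44l was at least 41.0-fold lower (adjusted p = 1.78e-06). Gbp2 differed by -0.07 ± 0.46, Gbp3 by -0.04 ± 0.28, Irgm1 by 0.11 ± 0.16, Igtp by 0.42 ± 0.20 and Cxcl9 by 0.94 ± 0.49, none of which passed. Cxcl10 (1.77 ± 0.79, adjusted p = 0.0856), Irf1 (-0.16), Psmb8, Psmb9, Tap2, Ifih1, Irf9, Stat2 and Bst2 did not pass either.

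In this comparison 5 of 13 macrophage and 3 of 5 monocyte markers rose and 1 monocyte marker fell, with a summed macrophage signal of 109 to 152 without and 87.7 to 260 with treatment. No T and NK cell marker passed (summed signal 2.20 to 2.65 and 2.27 to 4.04), and 5 of 8 hepatocyte markers fell (Tat by 2.42). Of the other lists 5 of 8 stellate cell and fibroblast markers rose and 1 fell, 3 of 8 endothelial markers fell and 1 rose, and 2 of 6 biliary markers rose, and their part was not tested. With 3 arrays per group 10 members rose and Ifi44l fell, and with the array's position on the slide as a covariate 6 rose and 1 fell, all treated dKO female arrays being at position 4. Within the 3 slides that hold both groups the median was 0.52 to 0.88 for all members, 1.54 to 2.45 for the type I arm and -0.04 to 0.03 for the interferon-gamma arm.

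**Figure D4:**
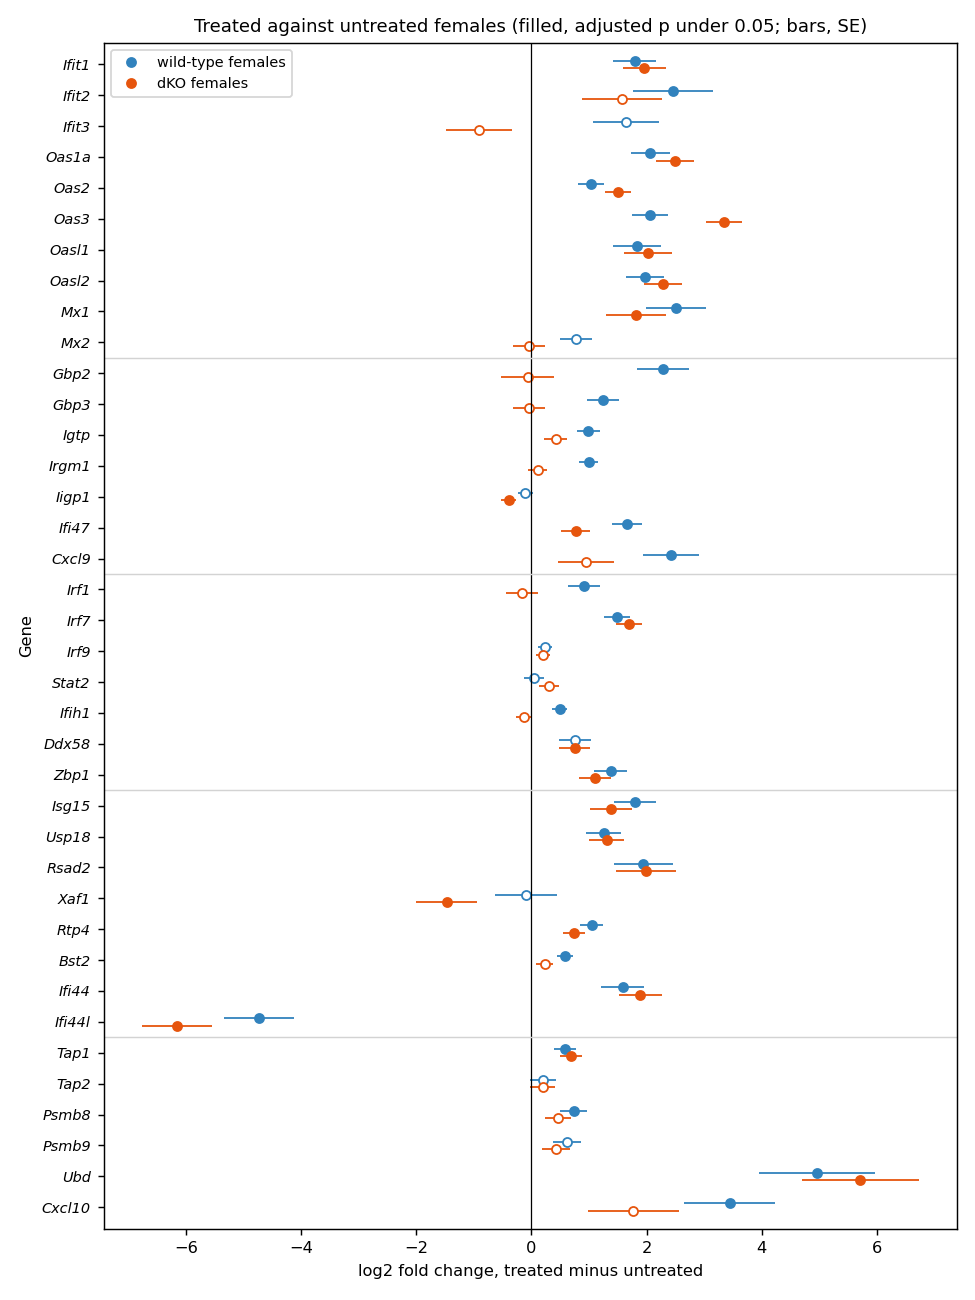
Log2 difference, treated minus untreated, with SE, of the 38 members in wild-type and dKO females (n = 4 arrays per group). Filled points have a limma adjusted p under 0.05. Oas genes lie right of 0 with filled points in both genotypes, Gbp2, Gbp3 and Irgm1 are filled in wild type and open in dKO, and Ifi44l lies far left in both.

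The difference between these treatment responses was itself tested as the genotype by treatment interaction. By limma 0 members were higher in dKO (1 at an unadjusted p under 0.05) and 2 (5.26%) were lower, against 2.47% and 2.68% of all genes: Gbp2 by -2.35 ± 0.64 (limma adjusted p = 0.0392) and Irgm1 by -0.89 ± 0.23 (adjusted p = 0.0324). Both belong to the interferon-gamma arm, whose median interaction was -0.89 with all 7 members below 0, while the type I arm had a median of 0.17 with 6 of 10 above 0. Gbp3 (-1.28 ± 0.39, adjusted p = 0.0621), Ifih1 (-0.61, adjusted p = 0.0692) and Ifit3 (-2.55, adjusted p = 0.0717) did not pass, nor did Cxcl10 (-1.68) or Cxcl9 (-1.48). Of 82 cell markers 2 had a higher interaction (Spp1 and Col1a1) and 5 a lower one, 2 of 14 T and NK cell, 2 of 8 endothelial and 1 of 13 macrophage genes; their part was not tested. With replicate 4 left out 0 members passed by limma (1 higher and 5 lower at an unadjusted p under 0.05), where 2 of all genes were higher and 5 lower, and Gbp2 kept its call in 19 of 39 alternatives.

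Without treatment, 2 guanylate-binding proteins were higher in dKO females. Gbp2 rose by 2.55 ± 0.46 (limma adjusted p = 0.00106) and Gbp3 by 1.56 ± 0.28 (adjusted p = 0.00103), and no array of one genotype reached the other. These are 2 of 38 members, or 5.26%, with 0 lower (1 at an unadjusted p under 0.05), against 5.18% and 4.62% of all genes, so the share called was near the background. The median over the members was 0.47, against -0.04 over all genes, and all 10 genes of the type I arm lay above 0 without a call (3 at an unadjusted p under 0.05), from 0.15 for Mx2 to 0.78 for Ifit3. Ubd differed by 2.40 ± 1.01 (adjusted p = 0.141). The largest negative value was that of Bst2, -0.36 ± 0.14 (adjusted p = 0.118). Of 82 cell markers 14 were higher and 1 lower, among them 4 of 6 biliary (Krt7 by 4.44), 2 of 13 macrophage, 2 of 5 monocyte, 2 of 8 stellate cell and fibroblast and 3 of 14 T and NK cell genes; their part was not tested. Leaving out replicate 4, limma called 0 members (2 higher at an unadjusted p under 0.05), and with these 2 groups alone in the fit 17 rose and 1 fell. The share of all genes called in that last fit is not given here, so the 17 cannot be set against it.

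In treated females the genotypes differed in opposite directions between members. Of 38 members 7 (18.4%) were higher in dKO and 3 (7.89%) lower, against 13.5% and 16.4% of all genes, with a median of 0.06. Higher were Oas3 by 1.51 ± 0.31 (limma adjusted p = 0.00147; 0.83 ± 0.41 on its second probe, adjusted p = 0.14), Oas2 by 0.98 ± 0.23 (adjusted p = 0.00348), Oas1a by 1.20 ± 0.33 (adjusted p = 0.0108), Oasl2 by 1.01 ± 0.33 (adjusted p = 0.0255), Irf7 by 0.79, Ifi44 by 1.27 and Ubd by 3.16 ± 1.01 (adjusted p = 0.0239). Oas2 and Ifi44 were also called on 1 of 2 probes only, the second Ifi44 probe reading 0.96 ± 0.41 (limma adjusted p = 0.0844). Lower were Bst2, which fell by 0.71 ± 0.14 (adjusted p = 0.00114), Irgm1, which fell by 0.52 ± 0.16, and Ifit3, which fell by 1.77 ± 0.58 (adjusted p = 0.0258). The type I arm thus held 4 of the higher genes, with a median of 0.80, and the interferon-gamma arm none, with a median of -0.32. Over all 38 members the higher share was little above the 13.5% of all genes, and the lower share was below the 16.4%. The split by arm was not tested. Cell markers differed as well, 19 of 82 being higher and 10 lower. Higher were 6 of 8 stellate cell and fibroblast markers (Col1a1 by 3.35), 5 of 6 biliary markers (Krt7 by 4.41; summed signal 9.13 to 21.2 in wild type and 71.3 to 236 in dKO), 5 of 13 macrophage markers (Cd14 by 1.83) and Ly6d (3.11; summed plasmacytoid dendritic signal 1.69 to 7.98 and 5.04 to 92.5). A summed linear signal gives most weight to the brightest gene of a list. The mean log2 difference of the tested plasmacytoid dendritic markers from untreated wild-type females was 1.27 ± 0.67 (SD) in wild type and 2.45 ± 0.95 in dKO. Siglech of that list was not tested, being well above background on 3 of 24 arrays. Lower were 4 of 8 hepatocyte markers (Cps1 fell by 1.95) and 4 of 8 endothelial markers. Their part was not tested. Without replicate 4, Oas3 remained higher and Bst2 lower, without the high arrays as well 12 were higher and 0 lower (1 at an unadjusted p under 0.05; median 0.61), without treated wild-type female replicate 3 alone 13 were higher and 1 lower (median 0.46), and with array position as a covariate 0 passed (4 lower at an unadjusted p under 0.05). Within the 2 slides that hold both groups the median was -0.79, against wild-type replicate 3, and 0.64.

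In treated males every called member was lower in dKO. By limma 0 of 38 were higher (1 at an unadjusted p under 0.05) and 7 (18.4%) were lower, against 14.4% and 10.9% of all genes, with a median of -0.39. Bst2 fell by 0.95 ± 0.14 (limma adjusted p = 6.03e-05), Ifih1 by 0.73 ± 0.14 (adjusted p = 0.000479), Zbp1 by 1.09 ± 0.28 (adjusted p = 0.00738), Xaf1 by 1.90 ± 0.53 (adjusted p = 0.0125), Irgm1 by 0.57 ± 0.16 (adjusted p = 0.014), Usp18 by 0.99 ± 0.30 (adjusted p = 0.019) and Igtp by 0.59 ± 0.20 (adjusted p = 0.0341). No gene of the type I arm passed (1 was lower at an unadjusted p under 0.05), and its median was -0.42, near the -0.57 of the interferon-gamma arm. Cxcl9 (-1.30 ± 0.49, adjusted p = 0.0586) and Cxcl10 (-1.69 ± 0.79, adjusted p = 0.129) were below 0 without a call. Among 82 cell markers 15 were higher and 3 lower in dKO. Lower were Ly6d of the plasmacytoid dendritic list (-3.92; summed signal of the list 11.1 to 58.6 in wild type and 1.15 to 5.71 in dKO), the monocyte marker Ly6c2 (-1.44; 19.0 to 40.0 and 11.2 to 15.1) and the endothelial marker Lyve1 (-1.44). As mean log2 differences from untreated wild-type females, the tested plasmacytoid dendritic markers were at 1.76 ± 0.35 (SD) in wild type and 1.19 ± 0.25 in dKO. The monocyte markers were at 1.27 ± 0.99 and 1.36 ± 0.20, so that list as a whole was not lower. Siglech of the former list was not tested, being well above background on 3 of 24 arrays. Higher were 5 of 6 biliary, 3 of 8 stellate cell and fibroblast, 2 of 5 dendritic, 2 of 6 B cell and 2 of 14 T and NK cell markers, and no macrophage or hepatocyte marker passed. Their part was not tested. Without replicate 4, Bst2 and Ifih1 remained lower, without the high arrays as well 3 were lower, and with array position as a covariate 0 passed (14 lower at an unadjusted p under 0.05), all treated wild-type male arrays being at position 1. Within the 3 slides that hold both groups the median was -1.1 to -0.30.

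**Figure D5:**
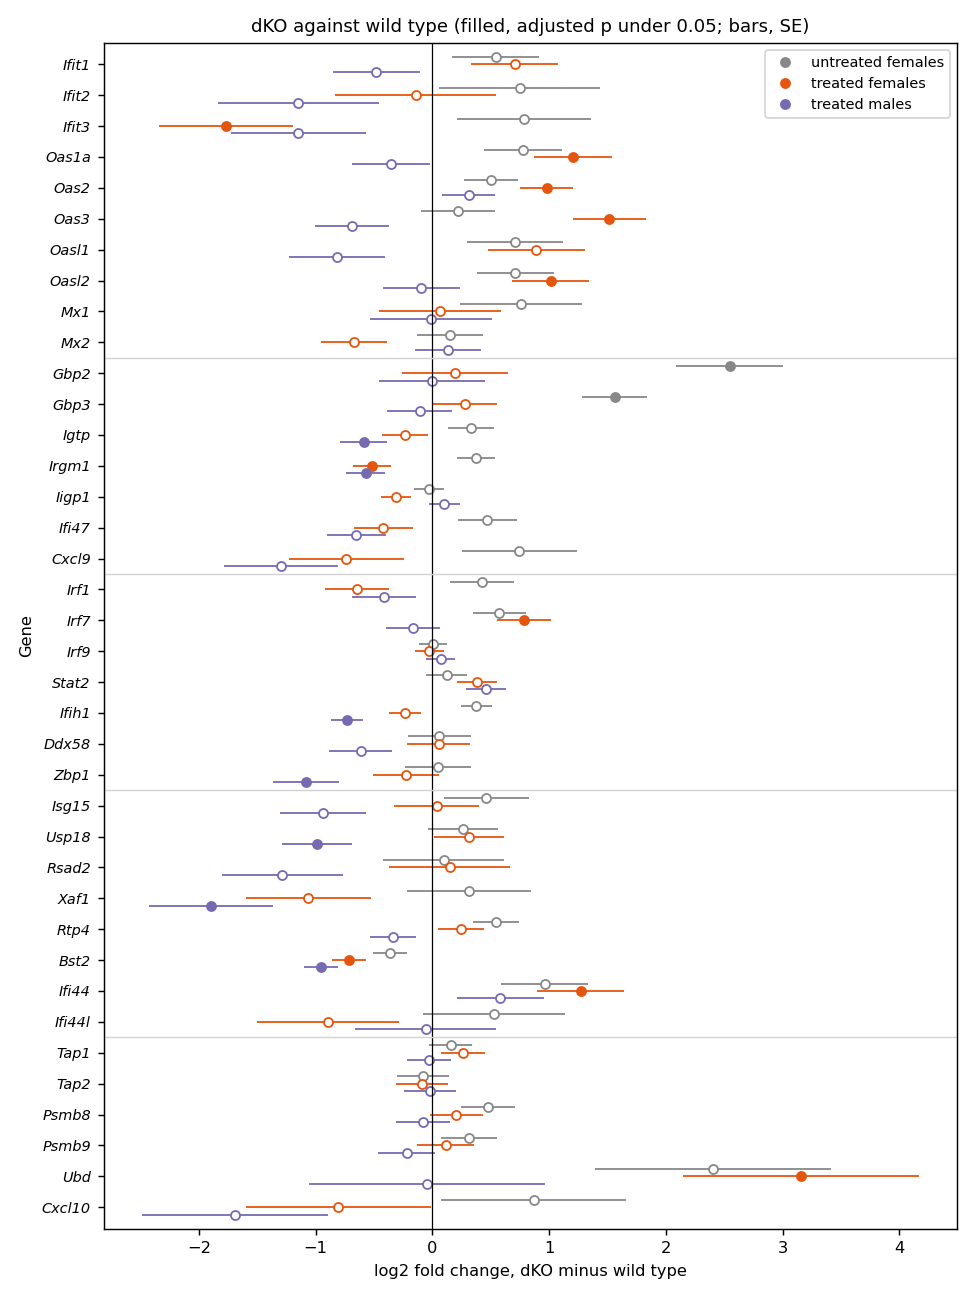
Log2 difference, dKO minus wild type, with SE, of the 38 members in untreated and treated females and in treated males (n = 4 arrays per group). Filled points have a limma adjusted p under 0.05. Gbp2 and Gbp3 are filled in untreated females, Oas3 (1.51) lies right of 0 in treated females and left of it, unfilled, in treated males, and Bst2 lies left of 0 in all 3 settings.

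The sexes were compared among treated mice. In wild type 1 of 38 members (2.63%) was higher in males, Oas3 by 1.27 ± 0.31 (limma adjusted p = 0.0184), and 0 were lower (0 at an unadjusted p under 0.05 too), against 3.30% and 2.87% of all genes, with a median of -0.06. The second Oas3 probe past the filter read -0.39 ± 0.41 here (adjusted p = 0.664), the other direction. The cell markers, 82 in all, held 1 higher gene (Ly6d by 3.39) and 7 lower ones; their part was not tested. Oas3 lost this call with 3 arrays per group, and without treated wild-type female replicate 3 there were 5 higher members. In dKO 1 (2.63%) was higher in males and 9 (23.7%) were lower, against 12.5% and 7.98% of all genes, with a median of -0.57. Lower in males were Zbp1, which fell by 1.29 ± 0.28 (adjusted p = 0.00377), Oasl1, which fell by 1.77 ± 0.41 (adjusted p = 0.00601), Ifit1, which fell by 1.58 ± 0.37 (adjusted p = 0.00638), Rsad2 (-1.69), Oasl2 (-0.94), Oas3 (-0.93), Gbp3 (-0.88), Rtp4 (-0.66) and Ifih1 (-0.48). Iigp1 was higher by 0.37 ± 0.13 (adjusted p = 0.0491) and kept that call in 9 of 39 alternatives. Of 82 cell markers 9 were lower in dKO males, among them 2 of 13 macrophage and 3 of 5 monocyte genes, and 4 higher, 2 of 8 hepatocyte and 2 of 8 endothelial genes; their part was not tested. Of these 10 calls 0 held without replicate 4 (1 member higher and 8 lower at an unadjusted p under 0.05), without the high arrays as well 2 were lower (Gbp2 and Zbp1), and with slide as a fixed block or array position as a covariate 4 were lower.

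The genotype effect differed between the sexes for 3 members (7.89%), all lower in males (dKO minus wild type, males minus females), and for 0 in the other direction (1 at an unadjusted p under 0.05), against 7.25% higher and 5.24% lower of all genes. The share called lower was thus near the background. The 3 members were Oas3 at -2.20 ± 0.44 (limma adjusted p = 0.00407), Oas1a at -1.56 ± 0.47 (adjusted p = 0.0355) and Usp18 at -1.30 ± 0.42 (adjusted p = 0.049). For Oas3 the genotype difference was 1.51 in females and -0.69 in males, for Oas1a 1.20 and -0.36, and for Usp18 0.31 and -0.99. The Oas3 result rests on 1 probe: on the second the genotype difference was 0.83 in females and 0.26 in males, neither called, and the interaction -0.58 ± 0.59 (limma adjusted p = 0.557). The type I arm had a median of -1.06 and the interferon-gamma arm of -0.23, with 0 of 7 called by limma (1 higher at an unadjusted p under 0.05). Of 82 cell markers 6 had a higher and 4 a lower interaction: Ly6d (-7.03), Col1a1 (-2.22), Spp1 (-1.70) and Ly6c2 (-1.58) were lower, 2 of 8 endothelial markers higher, and all 8 hepatocyte markers lay above 0 without a call (median 0.87). Their part was not tested. Of all 38 members the median was -0.53, against 0.11 over all genes. Oas3 kept its call in 35 of 38 alternatives, Oas1a in 23 of 39 and Usp18 in 13 of 39. With 3 arrays per group 0 members and 0 of all genes passed by limma (3 members lower at an unadjusted p under 0.05), and without treated wild-type female replicate 3 alone 13 members were lower.

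The rest of the pathway was read from a list of 91 genes, of which 82 were tested. The ligands were at the edge of detection: Ifnb1 was well above background on 0 of 24 arrays, as were Ifna4, Ifne, Ifnk and Ifnl3. Ifng, made by T and NK cells, had group means of -4.55 to -3.48 and differed by 1.07 ± 0.46 with treatment in wild-type females (limma adjusted p = 0.122), and none of 4 ligands tested passed in any comparison. Among the 6 receptor chains Ifnlr1, the chain specific to type III interferon, was higher in dKO by 2.06 ± 0.39 in untreated females (adjusted p = 0.0017), 2.87 ± 0.39 in treated females (adjusted p = 2.81e-05) and 2.26 ± 0.39 in treated males (adjusted p = 0.000233). It was well above background on 2 to 3 of 4 arrays of each wild-type group and on all dKO arrays. Its partner chain Il10rb was higher in dKO in the same settings, by 0.56, 0.86 and 0.72 (SE 0.17 each). Ifnar1, a chain of the type I receptor, did not pass in any comparison, while Ifngr1 was higher in dKO in treated females by 0.67 ± 0.17 (adjusted p = 0.0065).

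With treatment 33 of these 82 genes rose and 0 fell by limma (2 at an unadjusted p under 0.05) in wild-type females, and 32 rose and 10 fell in dKO females, or 40.2%, 39.0% and 12.2%, against 8.49%, 16.3% and 21.5% of all genes. With 3 arrays per group 8 rose and 0 fell (0 at an unadjusted p under 0.05) in wild-type and 10 rose and 1 fell in dKO females. In wild-type females the largest calls were Tgtp1, an immunity-related GTPase (2.60 ± 0.44), Ikbke, a kinase of IRF3 (2.18 ± 0.25), Cmpk2 (2.09 ± 0.35) and Ciita, the transactivator of MHC class II genes (2.06 ± 0.55). In dKO females they were H2-Eb1 of MHC class II (3.18 ± 1.01), Trim30a (2.35 ± 0.24), Ifi27l2a (1.90 ± 0.34) and Ciita (1.74 ± 0.55). Of 12 further interferon-gamma targets 6 rose in wild-type females, and 2 rose and 2 fell in dKO females; of 23 further type I targets 12 rose in the former, and 14 rose and 1 fell in the latter. Between genotypes 9 of the 82 were higher in dKO and 1 lower in untreated females, 17 and 10 in treated females, and 11 and 13 in treated males. As shares these are 11% and 1.22%, 20.7% and 12.2%, and 13.4% and 15.9%, against 5.18% and 4.62%, 13.5% and 16.4%, and 14.4% and 10.9% of all genes. Without replicate 4 the counts were 0 and 0 by limma (11 and 1 at an unadjusted p under 0.05), 4 and 2, and 3 and 7. Named by size besides Ifnlr1 were H2-Aa (1.37 ± 0.41), Irf5 (1.18 ± 0.32) and Irf8 (0.79 ± 0.25) in untreated females. In treated females they were H2-Eb1 (2.73 ± 1.01), Ifi27l2a (1.67 ± 0.34) and the CXCR3 ligand Cxcl11 (-1.40 ± 0.29). Treated males had Irf5 (1.66 ± 0.32), H2-Aa (1.53 ± 0.41) and Gbp6 (-1.48 ± 0.35).

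Between the sexes 1 of the 82 (1.22%) was higher and 5 (6.10%) were lower in wild-type males, against 3.30% and 2.87% of all genes. Among the lower were Cxcl11 (-1.08 ± 0.29), Tlr3 (-0.89 ± 0.23) and Ifitm1 (-0.64 ± 0.08), with Ifi27 (0.90 ± 0.11) the higher gene. In dKO males 3 (3.66%) were higher and 15 (18.3%) lower, against 12.5% and 7.98% of all genes. The largest were Ifi27l2a (-1.21 ± 0.34), Dhx58, the LGP2 sensor (-0.99 ± 0.18), Trim30a (-0.98 ± 0.24) and Cxcl11 (-0.84 ± 0.29). The sex by genotype interaction passed for 4 higher (4.88%) and 3 lower genes (3.66%), shares below the 7.25% and 5.24% of all genes. Largest were Lgals3bp (-1.46 ± 0.32), Irf2, a repressor of interferon targets (1.12 ± 0.29), Dhx58 (-1.04 ± 0.25) and Ifi27 (-0.91 ± 0.16). The genotype by treatment interaction passed for 1 higher (1.22%) and 5 lower genes (6.10%), against 2.47% and 2.68% of all genes. Largest were Cxcl11 (-1.62 ± 0.41), Gbp7 (-0.87 ± 0.24), Parp12 (-0.80 ± 0.17) and Ifi27 (0.76 ± 0.16). By list, 2 of 12 further interferon-gamma targets (Cxcl11 and Gbp7) and 2 of 23 further type I targets (Parp12 among them) were lower, against 2.68% of all genes, and Gbp7 kept its call in 18 of 39 alternatives. Without replicate 4, 1 of the 82 was higher and 1 lower for sex in wild type and 0 and 1 in dKO, and limma called 0 for both interactions (3 higher and 4 lower for sex by genotype and 1 and 6 for genotype by treatment at an unadjusted p under 0.05).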

How the data were processed

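Cy3-labelled cDNA was hybridized to 24 one-colour Agilent arrays of mouse design, after WT-Ovation Pico amplification and BioPrime labelling, per the labels' protocols. The deposited intensity values (gProcessedSignal, background-subtracted by Feature Extraction 10.5.1.1 per the file headers; version 9.53 per the submitters' processing notes) were used, with probe positions on mm9 per the file headers; no annotation of exons of that build was used. A table of the authors' signed fold scores, deposited with the series, was read only for its direction; no source used here gives its test or normalization.

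Control spots and outlier spots were dropped, spots of a probe averaged, log2 taken and each array's 75th percentile (433 to 959.9) subtracted. Of 41174 probes 28055 had 4 or more of the 24 arrays well above background, giving 19041 genes by their brightest probe. A gene's 6 group means were fitted to all 24 arrays with limma 3.58.1 (lmFit, eBayes; R 4.3.3, with version 1.17.8 of data.table), and 9 contrasts were adjusted over all genes by Benjamini-Hochberg at 0.05; the code was tested on simulated data. Tables and figures were made with Python 3.11.15, pandas 2.3.3, numpy 2.4.6 and matplotlib 3.10.9. The number of arrays limits the precision. The members, lists and tests were chosen with earlier results of these data known. Values per array are given for 12 members with the smallest adjusted p over the 7 simple comparisons (at least 2 per arm), and of other pathway genes up to 4 per comparison with the largest called difference, with Ifnar1, Ifngr1, Ifng, Ifnb1 and Foxa2 always given; 1 gene that this rule names is not reported here.

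Replicate numbers were not used as pairs: deviations from group means of arrays with the same number correlated at -0.02 on average over 60 pairs (from -0.34 to 0.34), against 0.14 for 36 pairs on the same slide. Alternatives were averaging all probes of a gene, only the groups compared, normexp background, quantile and median centring, other filters, outlier spots kept, slide as a fixed or random block, array position, a replicate block, eBayes with trend and robust settings, each array left out, and the 2 added settings without replicate 4.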

Additional observations from a re-analysis of the deposited data

Results flagged for a closer look

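Gaps between 1 array and the other 3 of its group were examined for 246 combinations of a member, or of the median of both arms or of all members, with a group, and 13 were large. With independent arrays chance gives about 1 in 20 groups. Replicate 4 mostly lay between the other arrays of its group, and the combinations reuse the same arrays. The number therefore cannot be set against that rate. Given as the gap over the group's range, the lowest array stood apart in treated wild-type males for Oas3 (0.898), Irf7 (0.858) and Xaf1 (0.841), in untreated wild-type females for Irgm1 (0.832) and Tap2 (0.897) and in treated dKO males for Bst2 (0.888). The highest array stood apart in untreated dKO females for Oasl2 (0.841), Gbp2 (0.945), Irf1 (0.893) and Rsad2 (0.909), in treated dKO males for Irf9 (0.928) and Ifi44l (0.948), and in treated wild-type females for Ifi44l (0.888), whose arrays there were not well above background.

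Effects that differed between groups by limma's interaction test were those of genotype between the sexes for Oas3 (-2.20, and -0.58 without a call on its second probe), Oas1a (-1.56) and Usp18 (-1.30), and those of genotype between treated and untreated females for Gbp2 (-2.35) and Irgm1 (-0.89), all on the log2 scale. The first are 7.89% of members, against 5.24% of all genes. The second are 5.26%, against 2.68%. In both tests 0 members were called higher.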

How the results depend on the processing

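Over 39 alternatives no called difference of a member changed sign. Of 85 single calls the replicate block kept 80, the random slide block 85, the fixed slide block 70, normexp 73, fits of only the groups compared 54, array position 45 and 3 arrays per group 22; positions are nearly tied to groups. The cause of these changes was not tested, apart from the fewer arrays of the last. Quantities moved as follows, without the shares of all genes called under the same fits, so the counts cannot be set against them.

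With 3 arrays per group the counts of called members were 0 for genotype in untreated females, 2 in treated females, 2 in treated males, 0 for sex in wild type, 0 in dKO, 7 and 11 for treatment in wild type and dKO, 0 for sex by genotype and 0 for genotype by treatment. Without the high arrays as well they were 3 in treated males, 0 and 2 for sex in wild type and dKO, 3 for treatment in wild type and 0 for both interactions, with medians of 0.61 for genotype in treated females and 0.20 for genotype by treatment. With only the groups compared they were 18, 2, 0, 19, 1 and 0 for genotype in untreated and treated females, sex in wild type, treatment in wild type, sex by genotype and genotype by treatment. Array position gave 0, 0, 4, 7 and 0 for genotype in treated females and males, sex and treatment in dKO and genotype by treatment, with medians of 0.32 (untreated females), -0.98 (treated males), -0.48 (sex, dKO), 0.49 (treatment, dKO) and -0.66 (genotype by treatment). Median centring gave 12 for genotype in treated males, and normexp a median of -0.48 for sex in dKO. For sex in wild type the mean of probes, normexp, quantile, the filter on all 24 arrays and the fixed slide block all gave 0. The fixed slide block gave 4 for sex in dKO, 1 for sex by genotype and 1 for genotype by treatment; no filter gave 1 and 0 for these interactions, the random slide block 4 and the replicate block 1 for genotype by treatment.

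Leaving out 1 array in turn, the counts ranged from 2 to 4, 5 to 14 and 5 to 12 for genotype (untreated females, treated females, treated males), 0 to 5 and 4 to 14 for sex (wild type, dKO), 23 to 32 and 18 to 24 for treatment, 1 to 13 for sex by genotype and 0 to 5 for genotype by treatment. Medians ranged from 0.38 to 0.50, -0.18 to 0.46 and -0.73 to -0.28, from -0.25 to 0.25 and -0.65 to -0.52, from 0.91 to 1.48 and 0.66 to 0.81, from -0.79 to -0.23 and from -0.43 to 0.03 in the same order. Of the 13 members with several probes past the filter no probe pair was called both ways. Some calls depended on the probe, though. With treatment in wild-type females Ifih1, Irf1 and Oas2 were called on 1 of 2 probes each. Rsad2, without a call in treated males in the main fit, was called on 2 of 3 probes there. Signal near background limits Oas3, Mx1 and Ifi44l.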

Other observations

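Genes of antigen presentation moved differently by class. Of 4 MHC class II genes 3 rose with treatment in wild-type females (Cd74 by 1.43 ± 0.45, H2-Aa by 1.34 ± 0.41 and H2-Ab1 by 1.72 ± 0.44, log2 with SE, limma adjusted p = 0.0321, 0.0286 and 0.0109) and 3 in dKO females (Cd74 by 1.52, H2-Ab1 by 1.72 and H2-Eb1 by 3.18). In dKO against wild type 3 were higher in treated females and 3 in treated males. H2-Aa was also higher in untreated dKO females, by 1.37 ± 0.41 (limma adjusted p = 0.0378). Of all genes 8.49% and 16.3% rose with treatment in wild-type and dKO females. In treated dKO females and males 13.5% and 14.4% of all genes were higher than in wild type. Of 8 MHC class I pathway genes only Tapbp rose with treatment in wild-type females, by 0.65 ± 0.19 (adjusted p = 0.0241). B2m, the light chain of class I, fell by 0.24, 0.49 and 0.30 in dKO against wild type in treated females, in treated males, and with treatment in dKO females, and the peptidase Erap1 fell by 0.58, 0.49 and 0.43. In treated wild-type females 3 of 5 dendritic and 5 of 6 B cell markers, whose cells carry class II, were higher as well; their part was not tested.

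The authors' deposited table held all 38 members, and 80 of 80 called differences that it covers had the same sign there. As that table belongs to the same series, the match of signs is no independent evidence.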
